A study of Mus musculus with 24 samples.

Results

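A set of 9 genes that set off, carry out or follow inflammasome signalling was followed through the ears of mice with a switched-on CARD14 mutation. The genes were taken by symbol from a table of 51912 genes, and all 9 were found: the sensors Nlrp3 and Aim2, the adaptor Pycard, the proteases Casp1 and Casp4, the pore formers Gsdmd, Gsdma and Gsdmc, and the cytokine Il18. RNA came from the whole ear of C57BL/6 mice that were wild type (Wt in the labels) or carried CARD14E138A, a knock-in allele in which tamoxifen, through the tamoxifen-dependent recombinase CreERT2, removes a lox-flanked stop cassette at the mouse's own Card14 locus. Both genotypes received tamoxifen by intraperitoneal injection on consecutive days, and ears were collected either at day 5, with days counted from the first injection, or at 1 month. Each of the 4 groups of genotype and time held 6 libraries, 24 in all. The promoter that drives CreERT2, whether wild-type mice carried it, and the age and sex of the mice are not given in the sources used here. Nothing in the labels ties the libraries of a group to separate mice, so a p-value here measures only how these samples spread, which may be technical.

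The 24 libraries held 15661515 to 23904976 counts each, with fewer at day 5 (at most 18852963) than at 1 month (at least 19255028) in both genotypes. Levels are given as CPM, a gene's count divided by the scaled total of its library, times 1000000. Card14 itself ranged from 34.6 to 54.2 CPM (wild type) and from 35.1 to 65.4 CPM (knock-in) at day 5, and from 32.9 to 49.9 CPM and from 9.93 to 25.3 CPM at 1 month. Gene counts do not show the altered base, so these levels do not check the genotype. Markers of keratinocytes, fibroblasts, cartilage, skeletal muscle and fat were present in all 4 groups, as the labelled tissue should hold. In 3 libraries of 1 month, wild type 2 and CARD14E138A 1 and 6, GC-rich genes read high (correlation of a gene's GC content with its deviation from the mean above 0.4). Xist, the RNA of the inactive X chromosome, was at most 0.174 CPM in all 24 libraries. Sums over Y-linked genes were 17.9 to 266.6 CPM, so all 24 read as male. These 3 and CARD14E138A library 2 had the lowest of these sums at 1 month. Results of the 9 genes at 1 month are therefore also given without the first 3, called the GC-rich libraries, and where it changes a call without all 4. These fits do not balance the GC correlation between the genotypes. Without the 3 it was -0.448 to 0.323 in wild-type and -0.506 to 0.292 in knock-in libraries of 1 month. Without all 4 it was -0.506 to -0.442 in the knock-in. Of the genes named from the related lists, most of them picked for a small adjusted p in these data, 22 were called at 1 month. Of these, 21 kept the call and its direction both without the 3 and without the 4 libraries, the exception being Nlrp12. The folds of the 22 moved by at most 1.43 times. The other called genes of these lists were not checked in this way. At day 5, CARD14E138A libraries 1 and 3 stood apart from the other 4 of their group, with scores of 3.32 and 6.97 on the first principal component against 50.3 to 64.6. Without these the calls of day 5 held for 6 of the 7 called members of the set, all but Casp1. They also held for 21 of 21 called genes among those named from the related lists. In whole-ear RNA, fewer cells of a type and less RNA per cell cannot be told apart.

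As background, an inflammasome is a platform that a sensor such as NLRP3 or AIM2 builds with the adaptor ASC, the product of Pycard, to activate caspase-1. Caspase-1 cuts the precursors of IL-1β and IL-18 and also gasdermin D, whose freed front part forms pores in the cell membrane. Caspase-11, the product of mouse Casp4, cuts gasdermin D in response to intracellular bacterial lipopolysaccharide. In keratinocytes CARD14 assembles a signalling complex that activates NF-κB, and gain-of-function changes in it are linked to psoriasis.

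At day 5, 6 of the 9 genes were higher in CARD14E138A ears (Nlrp3, Casp1, Casp4, Gsdmd, Gsdma and Gsdmc), Il18 was lower, and Pycard and Aim2 did not pass the test. At 1 month 7 were higher (Nlrp3, Aim2, Pycard, Casp1, Casp4, Gsdmd and Gsdmc), none was lower, and Gsdma and Il18 did not pass. All 9 passed the filter on low counts. A call is a Benjamini-Hochberg adjusted p below 0.05 in edgeR's quasi-likelihood test over 17287 genes. Such calls were common in these ears: 40.9% of all tested genes were called at day 5, 20.7% higher and 20.2% lower, and 47.1% at 1 month, 25.5% higher and 21.5% lower. The median log2 fold change of the 9 genes was 0.67 at day 5 and 1.39 at 1 month, beside -0.02 and 0.05 over all tested genes. The 6 knock-in libraries lay wholly above the 6 wild-type libraries for 4 genes at day 5 (Nlrp3, Casp1, Casp4 and Gsdmc) and for 4 at 1 month (Nlrp3, Aim2, Gsdmd and Gsdmc), which 17.9% and 12.2% of all tested genes also did. Il18 lay wholly below at day 5, as did 16.4% of all tested genes.

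**Figure D1:**
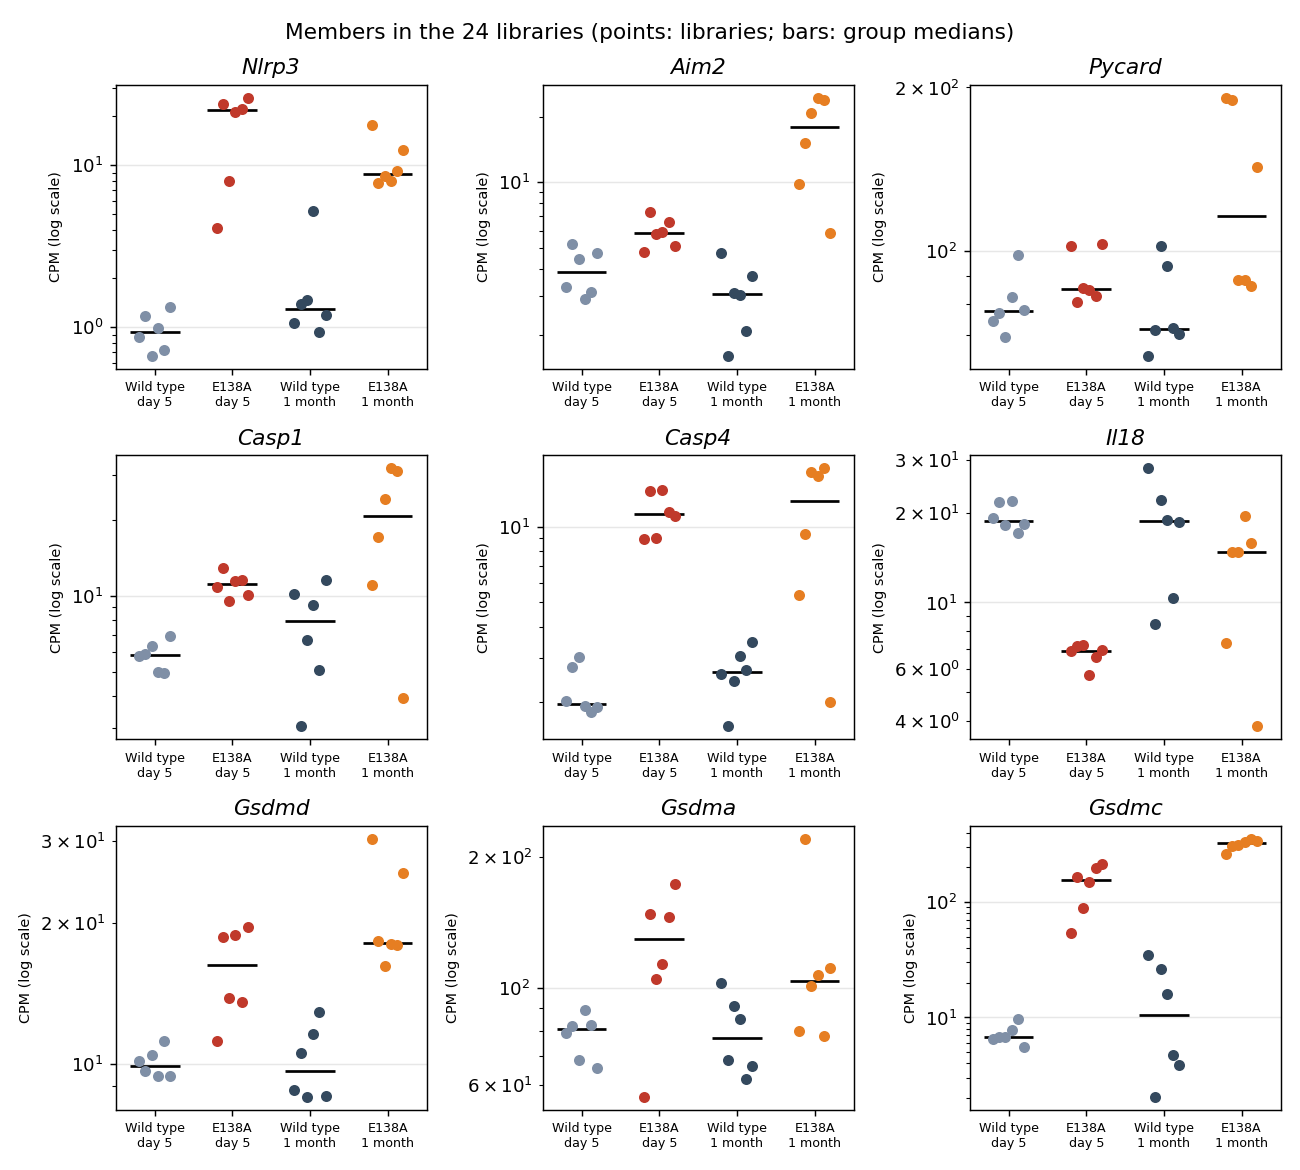
CPM (log axis) of the 9 genes in each of the 24 libraries (points, in replicate order within a group) with group medians (bars), for wild-type and CARD14E138A (E138A) ears at day 5 and 1 month. Gsdmc in the knock-in groups sits at 54.3 to 214 and 259 to 353 CPM, above every wild-type library, while Il18 drops to 5.72 to 7.21 CPM at day 5.

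Gsdmc (ENSMUSG00000079025, GRCm38 chromosome 15, 63775968 to 63808759, minus strand) codes for gasdermin C and lies in a cluster with the close copies Gsdmc2, Gsdmc3 and Gsdmc4. How alike these copies are bears on how far their counts can be kept apart. The first 75 coding bases show it, with capitals at the bases where Gsdmc differs from its copies:

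Gsdmc: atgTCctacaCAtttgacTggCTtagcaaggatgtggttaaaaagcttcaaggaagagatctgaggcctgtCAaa
Gsdmc2, Gsdmc3 and Gsdmc4: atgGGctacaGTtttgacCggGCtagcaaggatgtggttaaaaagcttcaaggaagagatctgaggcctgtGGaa

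The 3 copies were identical to each other over this stretch and differed from Gsdmc at 9 bases. Over the whole coding sequence Gsdmc was 86.1% to 86.4% identical to the copies, whereas Gsdmc2 and Gsdmc3 were 97.1% identical to each other. Of all 75-base stretches of the Gsdmc transcript, 88.8% occurred in no other gene's transcripts, against 63.0% for Gsdmc2, 62.8% for Gsdmc3 and 71.5% for Gsdmc4. Reads of about this length, the shortest length that the labels give, can thus be assigned to Gsdmc more often than to its copies, and the split among the copies is uncertain.

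Gsdmc had the highest fitted fold change of the 9 genes at both times, at day 5 within the error of Nlrp3, and was high in every knock-in library. At day 5 it ranged from 5.56 to 9.73 CPM (median 6.81) in wild-type and from 54.3 to 214 CPM (median 156.5) in CARD14E138A ears. The groups were far apart, and within the knock-in group libraries 1 and 3, at 54.3 and 88.6 CPM, were below the other 4, at 148.8 to 214.4 CPM. Its log2 fold change was 4.33 ± 0.53 (SE; edgeR adjusted p = 8.34e-07), and 4.63 without these 2 libraries. At 1 month it ranged from 2.05 to 34.6 CPM (median 10.4) in wild-type and from 258.5 to 352.8 CPM (median 322.5) in knock-in ears. Wild-type libraries of 1 month spread widely, whereas the 6 knock-in libraries kept within a narrow band above them. Here it was 4.44 ± 0.52 (edgeR adjusted p = 3e-07), and 4.24 without the 3 GC-rich libraries.

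The copies moved in the same direction. Gsdmc2 rose from a mean of 0.255 ± 0.25 CPM (SD, n = 6) to 29.4 ± 7.56 CPM at day 5, and from 2.91 ± 2.6 to 90.1 ± 6.73 CPM at 1 month. Its log2 fold changes were 6.79 ± 0.65 and 4.96 ± 0.53 (edgeR adjusted p = 3.35e-08 and 7.36e-08). Gsdmc3 had 1 count in the 6 wild-type libraries of day 5 and 91 in the 6 knock-in libraries, a ratio of 85.4 with a 95% counting interval of 14.95 to 3411. At 1 month Gsdmc3 rose by 6.23 ± 0.49 on the log2 scale (edgeR adjusted p = 1.53e-09), with means of 0.17 ± 0.206 CPM in wild type and 12.8 ± 2.15 CPM in the knock-in. Gsdmc4 was too low to test, with 2, 11, 1 and 17 counts in wild type and knock-in at day 5 and wild type and knock-in at 1 month. Summed over the 4 genes, which does not depend on the split among them, the cluster ranged from 6.09 to 9.99 CPM in wild-type and from 76.6 to 255 CPM in knock-in ears at day 5. At 1 month the sum was 2.38 to 40.1 CPM and 358 to 455 CPM. Gsdmc supplied 96.2% of that sum in wild-type and 82.7% in knock-in ears at day 5, and 82.6% and 75.5% at 1 month.

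Gsdmd (ENSMUSG00000022575, chromosome 15, 75862327 to 75867408) codes for gasdermin D, the pore former that caspase-1 and caspase-11 cut. It ranged from 9.44 to 11.2 CPM (median 9.93) in wild-type and from 11.2 to 19.6 CPM (median 16.3) in knock-in ears at day 5. Only the lowest knock-in library, number 1, reached down to the wild-type range. A log2 fold change of 0.67 ± 0.16 was fitted (edgeR adjusted p = 0.00229). At 1 month it ranged from 8.53 to 12.96 CPM (median 9.70) in wild-type and from 16.2 to 30.3 CPM (median 18.2) in knock-in ears. The groups did not overlap, and the log2 fold change was 1.05 ± 0.16 (edgeR adjusted p = 1.24e-05). The highest knock-in values, 25.6 and 30.3 CPM, came from the GC-rich libraries, against 16.2 to 18.3 CPM in the other 4, and the transcript is 54.35% GC. Without the 3 GC-rich libraries the log2 fold change was 0.78 (edgeR adjusted p = 0.000356).

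Gsdma (ENSMUSG00000017204, chromosome 11, 98664351 to 98677708) codes for a gasdermin of skin epithelium and has the close copies Gsdma2 and Gsdma3. Their first 75 coding bases are shown for the same reason as above, with capitals in Gsdma where any copy differs from it and in each copy where it differs from Gsdma:

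Gsdma: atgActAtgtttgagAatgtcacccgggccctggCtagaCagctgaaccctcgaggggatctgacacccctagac
Gsdma2: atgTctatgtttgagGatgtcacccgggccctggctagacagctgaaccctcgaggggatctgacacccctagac
Gsdma3: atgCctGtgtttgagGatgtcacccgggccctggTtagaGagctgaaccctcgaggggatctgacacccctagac

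Over this stretch Gsdma2 differed from Gsdma at 2 bases and Gsdma3 at 5, fewer than the 9 of the gasdermin C copies. The whole coding sequences of Gsdma2 and Gsdma3 were 89.6% and 90.6% identical to Gsdma, and 96.6%, 94.6% and 99.7% of the 75-base stretches of Gsdma, Gsdma2 and Gsdma3 occurred in no other gene. Gsdma ranged from 65.7 to 89.3 CPM (median 80.7) in wild-type and from 56.4 to 173.7 CPM (median 129.8) in knock-in ears at day 5. Knock-in libraries 2 to 6 lay above all wild-type libraries and library 1 lay below them. On the log2 scale the fold change was 0.67 ± 0.24 (edgeR adjusted p = 0.0266), and the call was lost when any 1 of 5 libraries was left out (wild type 3 or 6, knock-in 2, 5 or 6; edgeR adjusted p of 0.0527 to 0.0801). Without knock-in libraries 1 and 3 it was 0.88 (edgeR adjusted p = 0.00255). At 1 month Gsdma ranged from 62.2 to 103.1 CPM (median 76.9) in wild-type and from 77.7 to 220.1 CPM (median 104.2) in knock-in ears. The highest value came from knock-in library 2 alone. The groups overlapped, and the log2 fold change of 0.55 ± 0.24 did not pass the test (edgeR adjusted p = 0.0604). It was 0.27 without knock-in library 2 (edgeR adjusted p = 0.301), 0.20 without the 4 libraries of lowest Y-linked sums (edgeR adjusted p = 0.495), 0.24 with limma voom (adjusted p = 0.266) and 0.61 without the 3 GC-rich libraries (edgeR adjusted p = 0.0609). It passed at 0.61 to 0.64 when wild type 1, knock-in 1 or knock-in 5 was left out, and at 0.56 with the GC correlation as a covariate.

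There are 7 other gasdermins in the data, of which 5 were tested. At both times 3 of these rose, the copies Gsdmc2, Gsdmc3 and Gsdma3, and none fell. Among all tested genes 20.7% rose at day 5 and 25.5% at 1 month. Gsdma3 had log2 fold changes of 2.20 ± 0.33 and 2.15 ± 0.30 (edgeR adjusted p = 1.3e-05 and 3.42e-06), from a mean of 0.795 ± 0.15 to 3.66 ± 1.03 CPM at day 5 and from 1.71 ± 1.02 to 7.67 ± 1.94 CPM at 1 month. Gsdma2 had log2 fold changes of 1.02 and -0.81, neither of which passed (edgeR adjusted p = 0.0537 and 0.119). The first passed without wild type 4 or knock-in 1 and without knock-in libraries 1 and 3 (edgeR adjusted p = 0.0271), and the second without knock-in 2 (edgeR adjusted p = 0.0211). Gsdme, which codes for gasdermin E, had -0.19 and 0.24 (edgeR adjusted p = 0.351 and 0.2). Pjvk, a gasdermin-related gene of hearing, had too few counts to test. The median log2 fold change of the 5 tested genes was 2.20 at day 5 and 2.15 at 1 month.

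**Figure D2:**
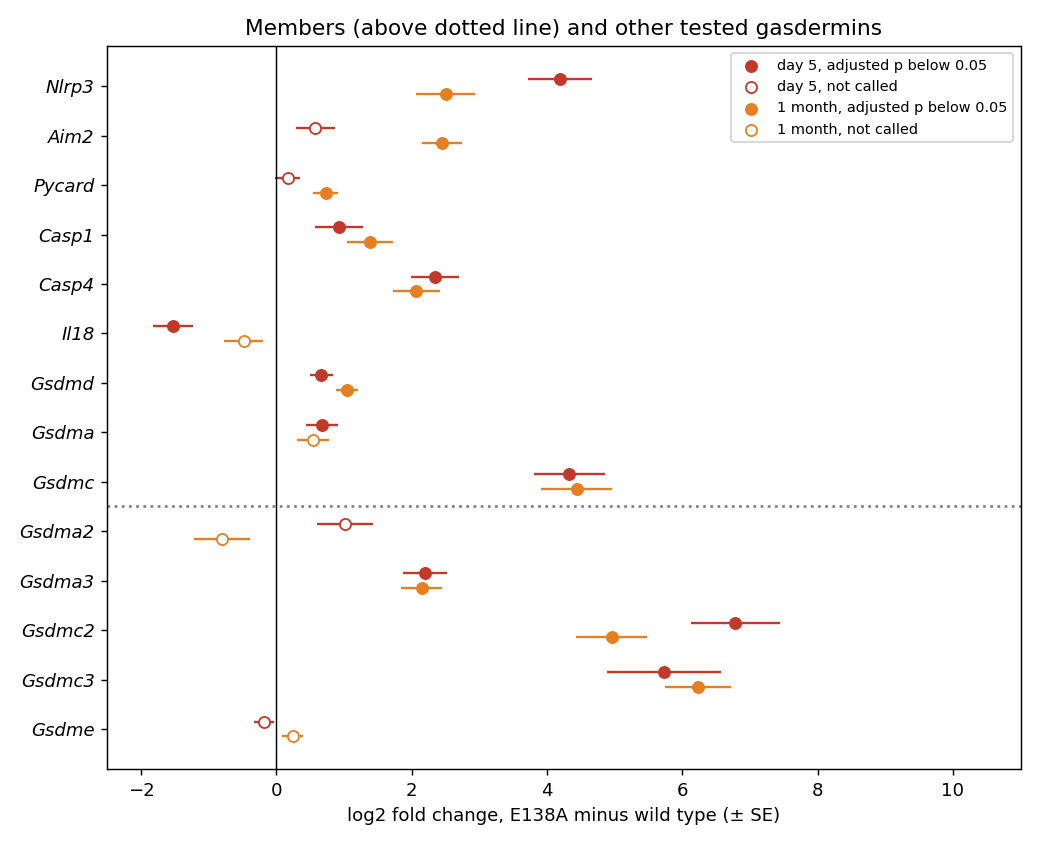
Log2 fold changes of knock-in over wild-type ears (x axis; bars are ± SE) at day 5 and 1 month for the 9 genes and the 5 other gasdermins tested, with filled points for an adjusted p below 0.05. The gasdermin C genes at both times and Nlrp3 at day 5 lie farthest right, Il18 lies left of 0, and the day 5 point of Gsdmc3 rests on 1 wild-type count.

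Nlrp3 (ENSMUSG00000032691, chromosome 11, 59541568 to 59566956) codes for the sensor of membrane damage and ion efflux, which NF-κB is known to induce. It was the gene with the second highest fold change of the 9 at day 5. In wild-type ears it ranged from 0.665 to 1.33 CPM (median 0.929) at day 5 and in knock-in ears from 4.09 to 26.1 CPM (median 21.9). No knock-in library reached down to wild type, although libraries 1 and 3, at 4.09 and 7.98 CPM, were well below the other 4, at 21.4 to 26.1 CPM. The log2 fold change was 4.19 ± 0.48 (edgeR adjusted p = 3.59e-07), and 4.58 without these 2 libraries. At 1 month it ranged from 0.929 to 5.23 CPM (median 1.3) in wild-type and from 7.75 to 17.7 CPM (median 8.88) in knock-in ears. The groups were again apart, with 1 wild-type library, number 4, above the other 5, which reached at most 1.47 CPM. Here the log2 fold change was 2.5 ± 0.43 (edgeR adjusted p = 4.26e-05), 3.13 when that library was left out and 2.07 without the 3 GC-rich libraries.

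Sums over neutrophil markers were high in the groups where Nlrp3 was high. All 8 neutrophil markers had counts, but only 4 passed the filter on low counts, and these 4 were called higher at both times. The sum of the 8 ranged from 4.90 to 7.46 CPM in wild-type and from 50.2 to 282.9 CPM in knock-in ears at day 5. The knock-in libraries with little Nlrp3, 1 and 3, had neutrophil sums of 50.2 and 63.6 CPM, and the other 4 had 211.5 to 282.9 CPM. At 1 month the neutrophil sum was 3.93 to 15.1 CPM in the wild type and 66.4 to 103.7 CPM in knock-in ears, and wild-type library 4 had the highest wild-type sum. The sum over 10 monocyte and macrophage markers, all with counts, was 195 to 230 and 221 to 648 CPM at day 5, and 170 to 288 and 375 to 628 CPM at 1 month. In knock-in ears of day 5 this sum was also lowest in libraries 1 and 3, at 221.4 and 300.7 CPM, against 436.8 to 647.5 CPM in the other 4. Among knock-in libraries of 1 month, library 1 had the highest Nlrp3, 17.7 CPM, and the highest sums of both lists, 628.2 and 103.7 CPM. Library 6, with the next highest Nlrp3, 12.4 CPM, had a neutrophil sum of 100.7 CPM. Its monocyte and macrophage sum was 410.8 CPM, with only library 2 lower, at 375 CPM. Libraries 1 and 6 are GC-rich libraries, and the Nlrp3 transcript is 51.01% GC. Within the wild type of 1 month the monocyte and macrophage sum did not follow Nlrp3. There library 5, with the highest sum of 288.1 CPM, had the lowest Nlrp3 of 0.929 CPM, and library 4, with the highest Nlrp3, had 213.1 CPM. The part of these cells in the level of Nlrp3 was not tested.

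Aim2 (ENSMUSG00000037860, chromosome 1, 173350879 to 173466040) codes for the sensor of DNA in the cytosol and overlaps Cadm3 on the other strand. The sources used here do not give whether the counting used strand. Aim2 ranged from 2.91 to 5.24 CPM (median 3.89) in wild-type and from 4.81 to 7.33 CPM (median 5.83) in knock-in ears at day 5. The groups overlapped, and the log2 fold change of 0.58 ± 0.29 did not pass the test (edgeR adjusted p = 0.119). It passed when only the libraries of day 5 were fitted (edgeR adjusted p = 0.0067), with limma voom (adjusted p = 0.000984) and with the library GC correlation as a covariate (edgeR adjusted p = 0.0186). At 1 month Aim2 ranged from 1.60 to 4.73 CPM (median 3.08) in wild-type and from 5.84 to 24.4 CPM (median 17.9) in knock-in ears. Every knock-in library was higher than every wild-type library, and the log2 fold change was 2.44 ± 0.30 (edgeR adjusted p = 4.64e-07), and 2.64 without the 3 GC-rich libraries.

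Pycard (ENSMUSG00000030793, chromosome 7, 127989708 to 127993867, minus strand) codes for ASC, the adaptor shared by both sensors. It overlaps Gm45205 on the other strand, and 89.0% of its 75-base stretches occurred in no other gene. At day 5 Pycard ranged from 69.6 to 98.4 CPM (median 77.5) in wild-type and from 80.7 to 102.9 CPM (median 85.1) in knock-in ears. The ranges overlapped, and the log2 fold change of 0.17 ± 0.18 did not pass (edgeR adjusted p = 0.504). At 1 month it ranged from 64.1 to 102 CPM (median 71.8) in wild-type and from 86.1 to 191.4 CPM (median 115.7) in knock-in ears. The knock-in group fell into parts, with libraries 1, 2 and 6 at 143 to 191.4 CPM and libraries 3, 4 and 5 at 86.1 to 88.5 CPM, inside the wild-type range. Over all libraries the log2 fold change was 0.73 ± 0.19 (edgeR adjusted p = 0.00217), 0.47 without the 3 GC-rich libraries (edgeR adjusted p = 0.04995) and 0.10 without the 4 libraries of lowest Y-linked sums (edgeR adjusted p = 0.579), which ended the call. It was also lost with limma voom and sample weights (0.07, adjusted p = 0.668).

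Of 18 other sensors and regulators 16 were tested. At day 5, 7 rose, 1 fell and 8 did not pass (median log2 fold change 0.52), and at 1 month 10 rose, 2 fell and 4 did not pass (median 0.97). Among all tested genes 20.7% rose and 20.2% fell at day 5, and 25.5% rose and 21.5% fell at 1 month. Panx1, a channel that releases ATP, rose from a median of 16.8 to 49.1 CPM at day 5 (log2 fold change 1.44 ± 0.16, edgeR adjusted p = 1.6e-07) and from 23.2 to 45.5 CPM at 1 month (0.98 ± 0.15, edgeR adjusted p = 1.17e-05). Mefv, the gene of the sensor pyrin, rose from a median of 1.43 to 9.86 CPM at day 5 (2.61 ± 0.43, edgeR adjusted p = 3.94e-05). Nlrp12, a NOD-like receptor of myeloid cells, rose from 0.662 to 3.36 CPM at day 5 (2.22 ± 0.41, edgeR adjusted p = 0.000142). At 1 month the sensor gene Nlrp1a rose from a median of 0.218 to 1.16 CPM (2.63 ± 0.38, edgeR adjusted p = 3.83e-06). Txnip, whose product binds thioredoxin and can bind NLRP3, was lower in knock-in ears at 1 month, with medians of 1041 CPM in wild type and 451 CPM in the knock-in (-1.23 ± 0.18, edgeR adjusted p = 5.85e-06). Its day 5 medians were 589.3 and 408 CPM, and in wild type it rose between the times (0.86 ± 0.18, edgeR adjusted p = 0.00447). Nlrp10, a NOD-like receptor of keratinocytes, which is named here after its values were seen, fell at both times (-1.14 ± 0.22 and -0.90 ± 0.22, edgeR adjusted p = 0.000234 and 0.00165).

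Casp1 (ENSMUSG00000025888, chromosome 9, 5298517 to 5307265) codes for the protease at the end of the canonical inflammasome. It ranged from 4.96 to 6.96 CPM (median 5.82) in wild-type and from 9.51 to 12.95 CPM (median 11.1) in knock-in ears at day 5. The groups did not overlap, and each kept within a narrow range. The log2 fold change was 0.93 ± 0.35 (edgeR adjusted p = 0.0363) in a fit that shares 1 estimate of spread with the wider 1-month groups. The call was lost with total counts only (edgeR adjusted p = 0.0565), with no filter (0.0544), without knock-in libraries 1 and 3 (0.0534), and when any 1 of 7 day 5 libraries was left out (wild type 1, 2, 4 or 5, knock-in 2, 4 or 5). It had smaller adjusted p-values when only the day 5 libraries were fitted (edgeR, 6.95e-06), with limma voom (2.34e-05) and with the GC correlation as a covariate (edgeR, 0.00281). At 1 month Casp1 ranged from 3.04 to 11.6 CPM (median 7.94) in wild-type and from 3.94 to 32.02 CPM (median 20.6) in knock-in ears. The groups overlapped through knock-in libraries 1 and 6, at 11.04 and 3.94 CPM, while the other 4 had 17.2 to 32.02 CPM. The log2 fold change was 1.39 ± 0.34 (edgeR adjusted p = 0.00185) and 1.60 without the 3 GC-rich libraries (edgeR adjusted p = 1.82e-06).

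Casp4 (ENSMUSG00000033538, chromosome 9, 5308828 to 5336783), the neighbour of Casp1, codes for caspase-11. Its coding sequence was 57.6% identical to that of Casp1, and none of its 75-base stretches occurred in another gene. It ranged from 1.83 to 3.02 CPM (median 1.97) in wild-type and from 8.96 to 13.99 CPM (median 11.3) in knock-in ears at day 5. Every knock-in library was higher than every wild-type library, and the log2 fold change was 2.34 ± 0.35 (edgeR adjusted p = 1.39e-05). At 1 month it ranged from 1.60 to 3.46 CPM (median 2.64) in wild-type and from 1.995 to 17.1 CPM (median 12.7) in knock-in ears. Knock-in library 6 lay within the wild-type range and library 1 was at 5.36 CPM, whereas the other 4 had 9.41 to 17.1 CPM. The log2 fold change was 2.07 ± 0.34 (edgeR adjusted p = 2.62e-05) and 2.36 without the 3 GC-rich libraries (edgeR adjusted p = 2.62e-08).

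Of 6 other caspases considered, all tested, 2 rose at day 5 and 3 at 1 month, and none fell (median log2 fold changes 0.46 and 0.46). Among all tested genes 20.7% rose and 20.2% fell at day 5, and 25.5% rose and 21.5% fell at 1 month. Casp6, a protease of apoptosis, rose by 1.03 ± 0.11 at day 5 and 1.21 ± 0.11 at 1 month on the log2 scale (edgeR adjusted p = 1.84e-07 and 1.06e-08). Casp8, the caspase of death receptor signalling, rose by 0.53 ± 0.17 and 0.72 ± 0.17 (edgeR adjusted p = 0.015 and 0.0011). Casp14, a caspase of cornifying keratinocytes that takes part in filaggrin breakdown, rose at 1 month from 30.4 to 94.8 CPM (median 67.1) to 267.5 to 546.9 CPM (median 339.7). These groups did not overlap, and the log2 fold change was 2.54 ± 0.30 (edgeR adjusted p = 2.81e-07). At day 5 Casp14 did not pass the test (0.66, edgeR adjusted p = 0.0646), but did without knock-in library 1, 3 or both (0.94 without both, edgeR adjusted p = 0.007).

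Guanylate-binding proteins expose bacterial lipopolysaccharide to caspase-11, and the transcription factors IRF1 and IRF8 drive genes of these pathways. Of the 7 such genes 6 were in the table by symbol, and all 6 rose at day 5, against 2 at 1 month, with none lower (median log2 fold changes 1.29 and 0.58). Among all tested genes 20.7% rose at day 5 and 25.5% at 1 month. Irf1 rose by 1.74 ± 0.17 at day 5 and 0.89 ± 0.17 at 1 month (edgeR adjusted p = 3.84e-08 and 0.000103). Gbp2 rose by 1.71 ± 0.27 at day 5 (edgeR adjusted p = 2.44e-05) and had 0.37 ± 0.26 at 1 month, which did not pass (edgeR adjusted p = 0.264). Irf8, also a factor of dendritic cell development, rose by 1.07 ± 0.22 and 2.00 ± 0.23 (edgeR adjusted p = 0.000503 and 1.51e-07). The sum over 6 dendritic and Langerhans cell markers was 27.6 to 35.0 and 33.7 to 68.6 CPM at day 5 and 38.6 to 50.4 and 71.2 to 102.1 CPM at 1 month, and its part in the level of Irf8 was not tested. Gbp5 rose by 1.25 ± 0.28 at day 5 (edgeR adjusted p = 0.000933) and had 0.54 ± 0.28 at 1 month (edgeR adjusted p = 0.119), which passed without wild type 5 (0.71, edgeR adjusted p = 0.0465).

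Il18 (ENSMUSG00000039217, chromosome 9, 50554827 to 50581840) codes for the precursor of IL-18, a cytokine that epithelial cells hold ready and caspase-1 cuts, and overlaps Bco2 and Tex12 on the other strand. It was the one gene of the 9 that fell, and it fell at day 5. It ranged from 17.1 to 21.9 CPM (median 18.8) in wild-type and from 5.72 to 7.21 CPM (median 6.90) in knock-in ears. All knock-in libraries were below all wild-type libraries, in a narrow range that libraries 1 and 3 shared. The fitted log2 fold change was -1.52 ± 0.29 (edgeR adjusted p = 0.000222). At 1 month Il18 ranged from 8.50 to 28.2 CPM (median 18.7) in wild-type and from 3.84 to 19.5 CPM (median 14.8) in knock-in ears. The groups overlapped, and the log2 fold change of -0.48 ± 0.28 did not pass (edgeR adjusted p = 0.173). Without the 3 GC-rich libraries it was -0.28 (edgeR adjusted p = 0.198), and with the GC correlation as a covariate it passed at -0.69 (edgeR adjusted p = 0.00368). The summed markers of basal keratinocytes, 6 of 6 with counts, were 12200 to 16940 CPM in the wild type and 13690 to 18120 CPM in knock-in ears at day 5. Those of suprabasal and granular keratinocytes, 7 of 7 with counts, were 21940 to 32660 and 20770 to 28490 CPM. Within the basal list, and also within the suprabasal and granular list, 2 markers were called higher and 2 lower. Of 14 marker lists 7 had sums that lay wholly lower in knock-in ears at day 5, as Il18 did. The sum of 6 T cell markers was 39.9 to 54.3 and 18.1 to 32.2 CPM, that of 6 sebaceous gland markers 5895 to 8086 and 2137 to 3999 CPM, that of 5 fibroblast markers 9655 to 13350 and 3921 to 6174 CPM, and that of 4 melanocyte markers 59.0 to 78.8 and 13.9 to 20.95 CPM. The other lists were those of cartilage (357.1 to 497.9 and 150.6 to 282 CPM), skeletal muscle (3561 to 4834 and 1570 to 3065 CPM) and fat (479.9 to 780.5 and 207.5 to 368.6 CPM). Single markers were less uniform than these sums. Of the fibroblast markers 2 were called lower and 1 higher, and 2 did not pass. In the T cell list and in the sebaceous gland list 3 were called lower and 3 did not pass. The cartilage, skeletal muscle, fat and melanocyte lists had 4 lower each and none higher. All markers of these 7 lists had counts. At 1 month, where Il18 did not pass, 5 of the 14 lists had sums wholly lower in knock-in ears and 4 wholly higher. The 5 were those of T cells, sebaceous gland, cartilage, skeletal muscle and fat. The part of these cells in the level of Il18 was not tested.

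Of 8 other genes of IL-1 and IL-18 signalling, all tested, 6 rose and none fell at day 5, and 5 rose and 1 fell at 1 month (median log2 fold changes 1.10 and 0.62). Among all tested genes 20.7% rose and 20.2% fell at day 5, and 25.5% rose and 21.5% fell at 1 month. Il1b, the other cytokine that caspase-1 activates, ranged from 0 to 0.754 CPM (median 0.355) in wild-type and from 5.22 to 138.1 CPM (median 92.2) in knock-in ears at day 5. At 1 month it ranged from 0.428 to 21.1 CPM (median 1.24) in wild-type and from 43.3 to 138.3 CPM (median 53.8) in knock-in ears. Knock-in libraries 1 and 3 had the lowest day 5 values of their group, 5.22 and 16.98 CPM, and the other 4 had at least 74.95 CPM. At 1 month wild-type library 4 had the 21.1 CPM, and the other 5 at most 6.04 CPM. Neither time showed an overlap, and the log2 fold changes were 7.76 ± 1.06 and 3.78 ± 0.81 (edgeR adjusted p = 3.84e-06 and 0.000432), the second 5.15 without that wild-type library. The receptor chain gene Il18rap rose by 3.45 ± 0.39 and 2.89 ± 0.38 (edgeR adjusted p = 3.08e-07 and 1.14e-06). Il1r1, the signalling receptor of IL-1, rose by 1.22 ± 0.14 at day 5 and 0.54 ± 0.13 at 1 month (edgeR adjusted p = 2.47e-07 and 0.00172). Il1rn, the gene of the IL-1 receptor antagonist, rose by 0.98 ± 0.17 and 1.57 ± 0.18 (edgeR adjusted p = 8.14e-05 and 1.44e-07).

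Of 5 genes of necroptosis, a lytic death that runs through MLKL pores and not gasdermins, 4 rose and none fell at each time (median log2 fold changes 1.48 and 1.51). Among all tested genes 20.7% rose at day 5 and 25.5% at 1 month. Zbp1, a sensor of left-handed nucleic acids, rose by 2.71 ± 0.30 and 2.20 ± 0.30 (edgeR adjusted p = 2.11e-07 and 1.94e-06). Its kinase partner Ripk3 rose by 1.56 ± 0.19 and 1.51 ± 0.19 (edgeR adjusted p = 8.42e-07 and 6.6e-07). The pore former Mlkl rose by 1.48 ± 0.21 and 1.91 ± 0.21 (edgeR adjusted p = 5.25e-06 and 1.1e-07).

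**Figure D3:**
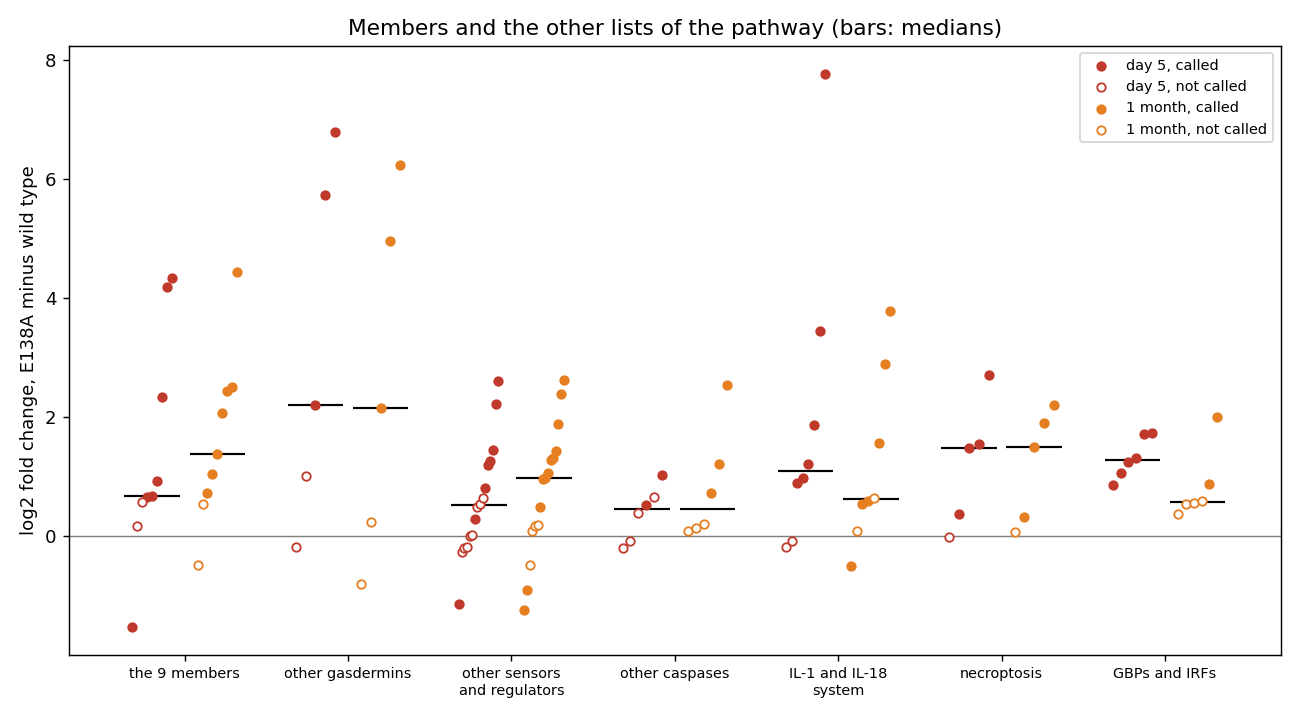
Log2 fold changes of knock-in over wild-type ears (y axis) for each tested gene of the 9 and of 6 related lists at day 5 and 1 month, with filled points for an adjusted p below 0.05 and bars for medians. List medians lie between 0.46 and 2.20 on the log2 scale, and the GBPs and IRFs are all filled at day 5 and 2 are at 1 month.

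Since CARD14 signals to NF-κB, the stretches just upstream of the genes were read for the κB motif. RefSeq promoter windows (GRCm38.p6, 250 bases before a start) were found for 6 of the 9 genes, in 8 windows. The motif, searched on both strands, was in windows of Casp4 and Nlrp3 and in none of Casp1, Aim2, Pycard or Il18, and 7.25% of all 32851 windows hold it. The windows of Casp4, Nlrp3 and the neighbour Casp1 are shown on the plus strand for comparison, with the matches in capitals:

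Casp4, chr9:5308599-5308848: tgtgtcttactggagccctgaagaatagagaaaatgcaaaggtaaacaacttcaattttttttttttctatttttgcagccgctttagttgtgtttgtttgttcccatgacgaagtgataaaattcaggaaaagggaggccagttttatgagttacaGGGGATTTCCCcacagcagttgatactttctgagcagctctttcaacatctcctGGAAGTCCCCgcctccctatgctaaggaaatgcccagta
Nlrp3, chr11:59541319-59541568: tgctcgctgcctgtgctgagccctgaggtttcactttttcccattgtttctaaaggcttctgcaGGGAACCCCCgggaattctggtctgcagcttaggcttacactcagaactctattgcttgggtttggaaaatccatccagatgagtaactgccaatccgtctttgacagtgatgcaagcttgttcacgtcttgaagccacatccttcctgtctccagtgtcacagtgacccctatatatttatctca
Casp1, chr9:5298267-5298516: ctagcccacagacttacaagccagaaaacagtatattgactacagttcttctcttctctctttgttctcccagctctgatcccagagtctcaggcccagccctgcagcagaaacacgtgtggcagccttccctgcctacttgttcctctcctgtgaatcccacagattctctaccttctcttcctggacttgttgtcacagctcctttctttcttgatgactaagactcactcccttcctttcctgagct

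In Casp4 the matches were GGGGATTTCCC at 93 to 83 and GGAAGTCCCC at 39 to 30 bases before the start, and both were also in its other window, whose start is a few bases downstream. In Nlrp3 the match was GGGAACCCCC at 186 to 177 bases before the start, and the window of its downstream start had none. The AP-1 motif TGANTCA, the STAT motif TTCNNNGAA and the interferon-stimulated response element, on both strands, were in none of the 8 windows, beside 6.75%, 7.02% and 2.98% of all windows. A match is a description of these letters, not a binding site.

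How the knock-in effect differed between the times was tested as an interaction, the log2 fold change at 1 month minus that at day 5. Of the 9 genes 1 passed, Aim2, beside 8.77% of all tested genes (4.68% higher and 4.09% lower). Its knock-in effect was 1.87 ± 0.41 larger on the log2 scale at 1 month (edgeR adjusted p = 0.00461), and 2.06 larger without the 3 GC-rich libraries. For Nlrp3 the difference was -1.69 ± 0.61 (edgeR adjusted p = 0.0936). It was smaller without wild-type library 4 of 1 month (-1.07, edgeR adjusted p = 0.26) and with a replicate block (-1.45, edgeR adjusted p = 0.215). It passed without the 3 GC-rich libraries (-2.13, edgeR adjusted p = 0.0417), without knock-in libraries 1 and 3 of day 5 (-2.10, edgeR adjusted p = 0.0131) or library 1 alone (-1.90, edgeR adjusted p = 0.0325), with DESeq2 (-1.75, adjusted p = 0.0357) and with limma voom (-2.51, adjusted p = 0.00126). For Casp1 it was 0.46 (edgeR adjusted p = 0.727), and it passed without the 4 libraries of lowest Y-linked sums (0.80, edgeR adjusted p = 0.0239) and with limma voom (0.75, adjusted p = 0.0285). For Il18 it was 1.04 ± 0.41 (edgeR adjusted p = 0.125). It passed without the 3 GC-rich libraries (1.23, edgeR adjusted p = 0.00176) and without the 4 of lowest Y-linked sums (1.25, edgeR adjusted p = 0.00189). For Gsdmc, with 0.11 ± 0.66, and Casp4, with -0.27 ± 0.48, the test did not pass (edgeR adjusted p = 0.974 and 0.876). In wild-type ears edgeR called 0 of the 9 genes between day 5 and 1 month, beside 9.09% of all tested genes, and 1 of them had an unadjusted p below 0.05. DESeq2 called 0 and limma voom 2. Without the 3 GC-rich libraries 2 passed, Casp1 and Gsdmc, with log2 differences of 0.60 and 1.3. Among the other gasdermins 3 rose in wild type over this time, Gsdmc2 by 3.45 ± 0.67, Gsdma3 by 1.11 ± 0.33 and Gsdmc3 (edgeR adjusted p = 0.00224, 0.0363 and 0.0475), the last with 1 count at day 5 and 22 at 1 month. The calls of Gsdma3 and Gsdmc3 were lost in 9 and 8 of 12 fits that each left out 1 library.

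Among the knock-in libraries of 1 month, the GC-rich libraries 1 and 6 lay below the other 4 for 4 of the 9 genes, above them for 2 and overlapped with them for 3. In these libraries Aim2 was at 5.84 to 9.79 CPM against 15.2 to 24.4 CPM in the other 4, Casp1 at 3.94 to 11.04 against 17.2 to 32.02, Casp4 at 1.995 to 5.36 against 9.41 to 17.1, and Il18 at 3.84 to 7.34 against 14.75 to 19.5. The transcripts of these genes are 41.15% to 43.02% GC. Nlrp3, at 51.01% GC, went the other way, with 12.4 to 17.7 CPM against 7.75 to 9.19 CPM, as did Gsdmd, at 54.35% GC. The ranges overlapped for Gsdmc, at 43.41% GC, with 258.5 to 338.4 CPM against 306.7 to 352.8 CPM, for Pycard, at 45.63% GC, with 143 to 191.4 against 86.1 to 189.9, and for Gsdma, at 49.67% GC, with 79.7 to 111.3 against 77.7 to 220.1. The part of library composition in these values was not tested beyond the fits without these libraries and the fit with the GC correlation as a covariate. That fit called all 9 genes at 1 month, 8 higher and 1 lower. The sum of 6 hair follicle markers, all with counts, also set the 1-month groups apart, at 32.7 to 348 CPM in the wild type and 446 to 2646 CPM in knock-in ears.

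**Figure D4:**
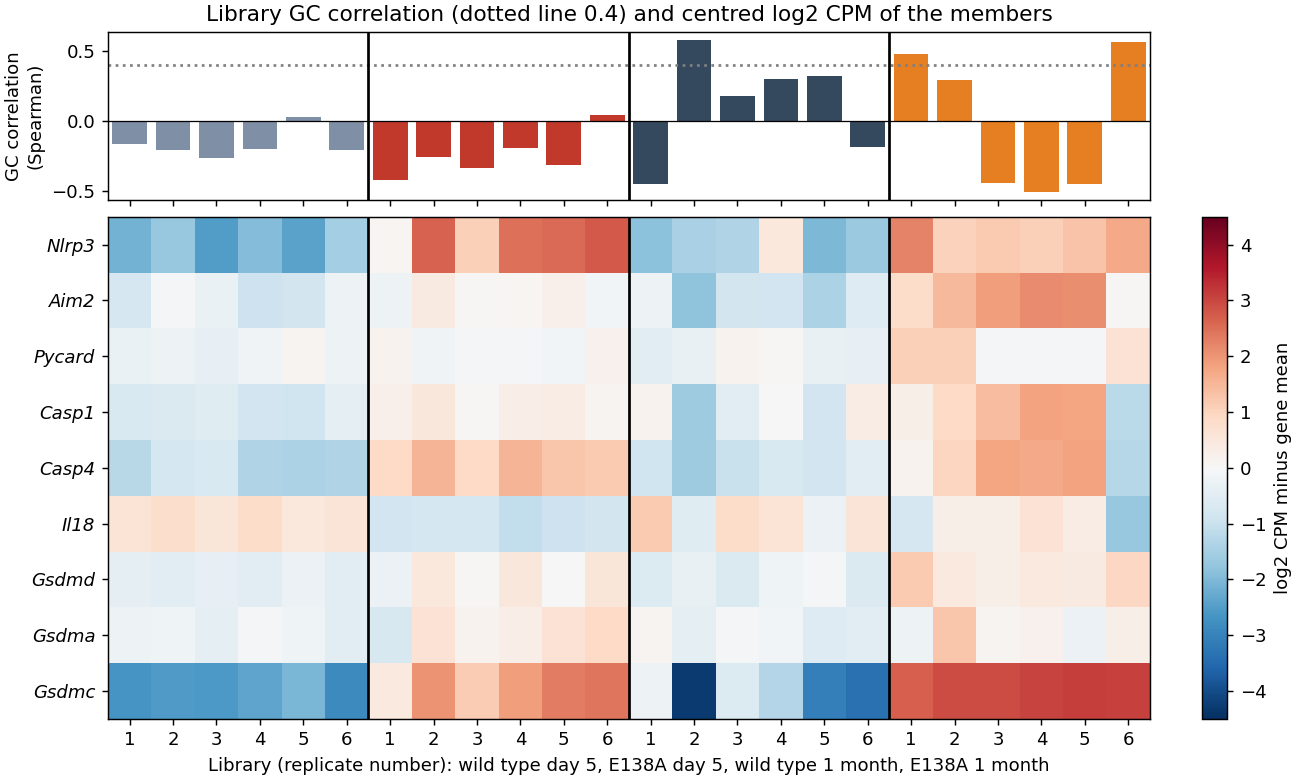
Top, for each of the 24 libraries (bars), the Spearman correlation across genes of GC content with the deviation from the gene's mean, with a dotted line at 0.4. Below, log2 CPM of each of the 9 genes minus its mean over the libraries (colour), where the 3 libraries over the line show low Aim2, Casp1, Casp4 and Il18 within their groups.

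Levels can be compared between genes only per length, as CPM per kb of transcript. In wild-type ears at day 5 the order was Gsdma (28.6 ± 3.31, SD), Il18 (22.5 ± 2.3), Pycard (21.04 ± 2.62), Gsdmd (5.62 ± 0.391), Casp1 (3.89 ± 0.514), Gsdmc (2.99 ± 0.595), Casp4 (1.57 ± 0.358), Aim2 (1.40 ± 0.343) and Nlrp3 (0.238 ± 0.0647). Il18 and Pycard, and Casp4 and Aim2, were neighbours within their spread. In knock-in ears at day 5 Gsdmc came first at 60.2 ± 25.9 CPM per kb, within its spread of Gsdma at 45.4 ± 15.2. Il18 dropped to the sixth place at 7.84 ± 0.642, close to Casp4, Casp1 and Gsdmd at 7.39 to 8.92. At 1 month Gsdmc held the fourth place in wild-type ears, at 6.09 ± 5.61, and first in knock-in ears, at 131.8 ± 13.9 CPM per kb. Every knock-in library of 1 month, 107.5 to 146.7 for Gsdmc, was above the highest value of Gsdma, 80.8.

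**Figure D5:**
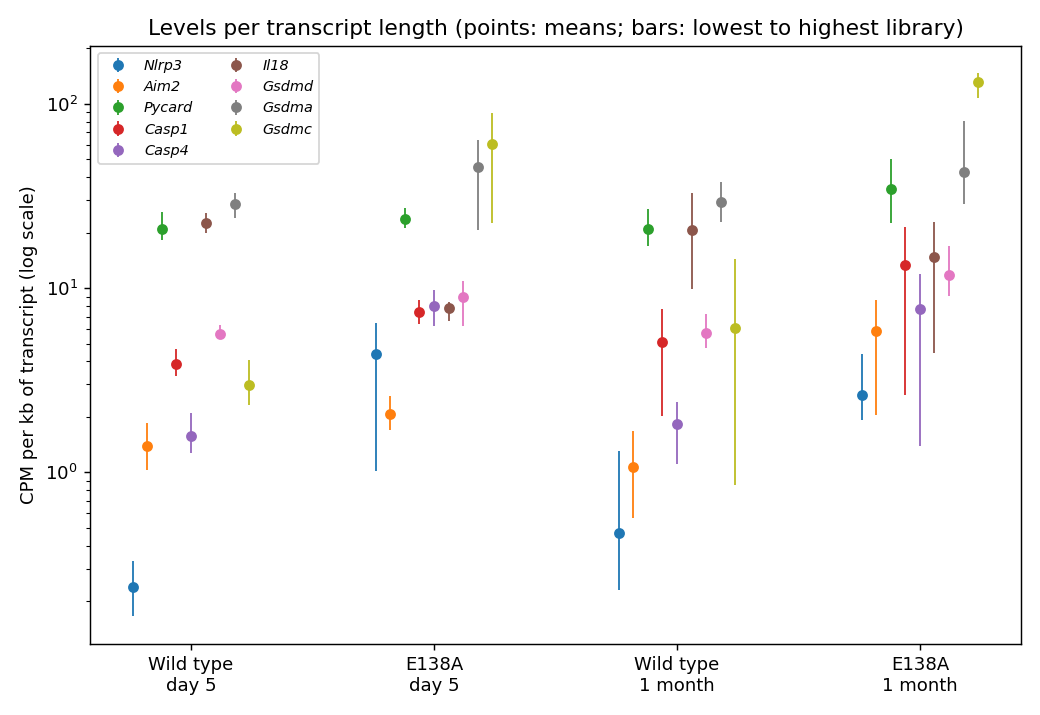
CPM per kb of transcript (log axis) of the 9 genes in the 4 groups, as group means (points) with the lowest to highest library (bars). Gsdmc moves from 2.99 to 60.2 at day 5 and from 6.09 to 131.8 at 1 month, and Nlrp3 is lowest in both wild-type groups.

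For each gene, the closest pattern was sought as the smallest root mean square difference in log2 CPM, each gene centred on its mean, over the 24 libraries and 15311 genes with at least 1 CPM on average. For Il18 it was Nlrp10 (0.347) and the iron exporter gene Slc40a1 (0.365). For Gsdmc it was Lce3e (0.648), a late cornified envelope gene, and Lpo (0.689). Those nearest to Gsdma were Ptk6 (0.202) and Wfdc5 (0.216), and those nearest to Gsdmd were Unc93b1 (0.176) and Tbrg4 (0.177). Casp1 had Il7r (0.361) and Rgs1 (0.385), both expressed by lymphocytes, and Casp4 had Gpr171 (0.454). Aim2 had Gm8113 (0.367) and Ammecr1 (0.451), Nlrp3 had Msx3 (0.495) and the interferon-induced Ifitm1 (0.501), and Pycard had Vcpkmt (0.161) and Htatip2 (0.168). Genes of small spread give small differences, and the measure also takes in what the libraries share, such as GC content.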

How the data were processed

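The authors deposited RSEM expected counts for each Ensembl gene, per the file headers. RSEM 1.3.0, STAR 2.5.2, DESeq2 1.14.1 and build GRCm38 are named in the submitters' processing notes. The sources used here do not give the annotation release. All values were rounded (6.71% were not whole), and 24 of 24 columns matched 1 sample each by name. Symbols, coordinates and transcript sequences came from GENCODE M21 (GRCm38), which held 51719 of the 51912 identifiers.

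Counts were fitted in R 4.3.3 with edgeR 4.0.16 (filterByExpr, 17287 genes; TMM; 1 coefficient per group, 24 libraries; robust quasi-likelihood; two-sided F tests, Benjamini-Hochberg over all tested genes). CPM used TMM-scaled totals, log2 CPM a prior count of 2, and the standard error was the log2 fold change over the square root of F. Counting intervals cover counting error only. Lengths and GC are those of 1 transcript per gene. No library repeated another. The test was tried on simulated counts in which few genes differed, unlike these data, and no result above rests on that trial.

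Alternatives were DESeq2 1.42.0, no filter or a minimum of 1 CPM in 6 libraries, scaling by RLE factors or by total counts only, limma 3.58.1 voom with sample weights, a non-robust fit, a fit of only the compared libraries, a replicate block and leaving out each library. After seeing the data 4 were added: 3 libraries with a GC correlation above 0.4 left out, 4 libraries of 1 month with the lowest Y-linked sums left out, the GC correlation as a covariate, and 2 CARD14E138A libraries of day 5 (1 and 3), apart on the first principal component, left out. The 9 genes and the lists were chosen with earlier results of these data known. From each related list the 3 genes with the smallest adjusted p at each time are named, with all gasdermins, and for each of the 9 genes the 2 of closest pattern. A few genes that these rules or lists would take in are not reported here, and the counts and medians of the other caspases leave them out.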

Additional observations from a re-analysis of the deposited data

Results flagged for a closer look

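Of 56 sets of 6 libraries (14 genes in 4 groups), 4 had 1 library far from the others, and chance gives about 1 in 20. Nlrp3 reached 5.23 CPM in wild-type library 4 of 1 month, where the other 5 had at most 1.47 CPM. Gsdma reached 220.1 CPM in CARD14E138A library 2 of 1 month. Gsdmc3 was at 0.0604 CPM in wild-type library 3 of day 5, which is 1 count, and at 0 in the other 5. Gsdme reached 3.23 CPM in wild-type library 5 of 1 month.

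The knock-in effect differed between 1 month and day 5, by the edgeR interaction test, for 1 of the 9 genes and 8 other genes. The 8 were found among Card14 and all tested genes of the related lists, and 8.77% of all tested genes passed. Aim2 had an interaction of 1.87 on the log2 scale (adjusted p = 0.00461) and Casp14, the caspase of cornifying keratinocytes, 1.88 (adjusted p = 0.00369), both with the larger rise at 1 month. P2rx7, the ATP-gated channel upstream of NLRP3, had 0.66 (adjusted p = 0.0194). Il1b had -3.98 (adjusted p = 0.0487), Gbp2 -1.34 (adjusted p = 0.0262), Irf1 -0.85 (adjusted p = 0.0226) and Il1r1 -0.68 (adjusted p = 0.0253), all with the larger rise over wild type at day 5. Il1b had only 35 counts in wild type at day 5, and wild type was 3.85 ± 1.02 higher on the log2 scale at 1 month (edgeR adjusted p = 0.0188). Without wild type 4 of 1 month this was 2.48 (edgeR adjusted p = 0.101). Knock-in means of Il1b were 77.4 ± 55.4 CPM (SD) at day 5 and 70.7 ± 37.7 CPM at 1 month, with medians of 92.2 and 53.8 CPM. Txnip had -0.97 (adjusted p = 0.0174) and Card14 -1.52 (adjusted p = 0.000827), both lower in knock-in ears at 1 month. Txnip was also higher in wild-type ears at 1 month than at day 5, as given above. The interaction call of Il1b was lost in 17 of 24 fits that each left out 1 library, most of all without wild type 4 of 1 month (-2.61, adjusted p = 0.166), and that of Gbp2 in 3 (without wild type 1 or 2 of day 5 or 5 of 1 month). Il1r1 was lost without the 3 GC-rich libraries (-0.64, adjusted p = 0.0502), and P2rx7 and Txnip without CARD14E138A libraries 1 and 3 of day 5 (0.60 and -0.64, adjusted p = 0.0752 and 0.0991).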

How the results depend on the processing

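The calls of Nlrp3, Casp4, Gsdmd, Gsdmc and Il18 at day 5 and of Nlrp3, Aim2, Casp1, Casp4, Gsdmd and Gsdmc at 1 month held under every alternative run, and no fold change of knock-in over wild type in the 9 genes changed sign. Those of Casp1 and Gsdma at day 5 and Pycard at 1 month did not, as given above. Casp1 at day 5 was also lost with a replicate block (0.92, edgeR adjusted p = 0.0657).

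The comparisons over time depended more on the settings, and the cause was not tested. In the interaction 2 of the 9 genes were called with DESeq2, 4 with limma voom, 3 without the 3 libraries of high GC correlation, 4 without the 4 libraries of lowest Y-linked sums, 3 with GC correlation as a covariate and 2 without CARD14E138A libraries 1 and 3 of day 5. Over all genes the interaction had 8216 calls with limma voom, 4630 without the 4 libraries and 2816 with the covariate, beside 1516. Limma voom called 11693 genes at day 5, beside 7068. Over time in wild type DESeq2 called 2458 genes, limma voom 8219, the replicate block 1019 and the fit without the 4 libraries 3168, beside 1572. Of these 1572, 1086 were higher and 486 lower, against 1457 and 374 with RLE factors and 1518 and 346 with total counts only. Of the 9 genes, 2 were then called with limma voom and without the 3 libraries, and 1 without the 4 libraries and with the covariate.

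Uncalled log2 values near 0 changed sign. Over time in wild type Pycard (-0.02) had 0.035 with DESeq2, 0.17 with limma voom, 0.035 with RLE factors, 0.011 with total counts only, 0.036 with no filter, 0.015 with the stricter filter, 0.017 with only the libraries compared, 0.061 without the 3 libraries and 0.046 without the 4. There Il18 (-0.13) had 0.060 and 0.048 without the 3 and 4 libraries and 0.16 with the covariate, which gave Gsdmd -0.17 and Gsdma -0.031. In the interaction Pycard had -0.060 with limma voom and -0.087 without the 4 libraries. Casp4 had 0.013 and 0.16, and Gsdmc -0.096 and -0.095, without the 3 and the 4 libraries, and Gsdmc -0.22 without CARD14E138A libraries 1 and 3 of day 5.

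With 1 library left out at a time, the 9 genes gave 5 to 7 calls at day 5, 7 to 8 at 1 month, 1 to 2 in the interaction and 0 over time in wild type, and all genes gave 6137 to 7262, 7640 to 8243, 1191 to 1731 and 937 (without wild type 5 of 1 month) to 3026 (without wild type 1 of 1 month). Ranges that crossed 0 were, in the interaction, -0.40 to 0.00084 for Gsdma and -0.12 to 0.58 for Gsdmc, and, over time in wild type, -0.10 to 0.067 for Pycard, -0.066 to 0.084 for Gsdmd, -0.028 to 0.091 for Gsdma and -0.28 to 0.016 for Il18.

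Replicate numbers did not pair the libraries. Over 36 same-numbered pairs the correlation of deviations was -0.73 to 0.39, 3 were over 0.1, and 1 library of 24 correlated best with its own number. With the numbers as a replicate block 6 of the 9 genes were called at day 5, 7 at 1 month, 1 in the interaction and 0 over time in wild type.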
